A study of Mus musculus with 44 samples.

Results

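The clustered protocadherins are a family of cell-surface receptors encoded side by side on mouse chromosome 18. The genes were taken from the RefSeq annotation of GRCm38 (mm10) as every gene between about 36.9 and 37.9 Mb of chromosome 18 whose symbol begins with Pcdha, Pcdhb or Pcdhg. That gave 58 genes: 14 alpha, 22 beta and 22 gamma genes. Pcdhgb8, a gamma gene, is annotated as a transcribed pseudogene and the rest as protein-coding. The annotation holds 21900 protein-coding genes. With 1000 bp before the starts, the alpha genes span 259.6 kb (36929285 to 37188897), the beta genes 257.4 kb (37263998 to 37521419) and the gamma genes 181.1 kb (37660775 to 37841873).

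Each protocadherin binds the same protein on a neighbouring cell, and the set that a neuron displays gives its surface an identity that serves in self-avoidance of its branches and in wiring. Most alpha and gamma genes are alternate first exons, each with its own promoter, that are spliced to shared constant exons at the end of their subcluster, whereas the beta genes are single-exon genes. A neuron switches on a few alternate promoters largely at random. CTCF and cohesin loop them to distant enhancers, and DNA methylation of the promoters, laid down with the help of Dnmt3b, goes with silence. The C-type genes (Pcdhac1, Pcdhac2, Pcdhgc3, Pcdhgc4 and Pcdhgc5) are chosen in a more uniform manner than the alternate genes.

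The 44 libraries, made from whole blood, frontal cortex or hippocampus, used reduced representation bisulfite sequencing (RRBS), a method that reads methylation in CpG-rich fragments. All came from adult male wild type C57BL/6J mice in a model of Gulf War Illness. Every mouse, controls included, had corticosterone (CORT) at 200 mg/L in 0.6% ethanol as drinking water for 7 days, then diisopropyl fluorophosphate (DFP, an acetylcholinesterase inhibitor) at 4 mg/kg on day 8, then further CORT in alternate weeks up to 5 weeks. On the last day the groups received saline, with tissue taken at 6 h, or lipopolysaccharide (LPS, a bacterial endotoxin) at 0.5 mg/kg under the skin, with tissue taken at 6, 12 or 24 h. In that order, blood had 4, 4, 3 and 3 libraries, hippocampus 3, 4, 3 and 4, and cortex 4 in each group. No group was free of CORT and DFP. The saline libraries were all taken at 6 h, so the LPS 12 h and 24 h comparisons differ in time as well as in injection. Whether replicate libraries are separate animals is not in the labels, so a p-value here speaks of the spread among these libraries, and that spread may be technical. In such bulk samples a shift in the mix of cells and a change within the cells cannot be told apart.

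Each table, 1 for each tissue and time, gives percent methylation (0 to 100) of single cytosines, 1083654 to 1380165 in number. Between 709 (blood, 12 h) and 983 (cortex, 12 h) of them lay in the cluster, and 664 stood in all 9 tables: 167 alpha, 135 beta and 362 gamma. Read counts are not in the tables and the sequencing depth of each level is unknown. Methylation was averaged over tiles of 1 kb with at least 3 cytosines and over member windows, which run from 1000 bp before to 3000 bp after the annotated start of a gene and end where the next window begins. Windows with at least 3 cytosines in all 9 tables existed for 7 alpha, 9 beta and 20 gamma genes. No table had such a window for 5 alpha and 9 beta genes, so they are not described: Pcdha6, Pcdha7, Pcdha9, Pcdha10, Pcdha11, Pcdhb4, Pcdhb6, Pcdhb8, Pcdhb9, Pcdhb11, Pcdhb12, Pcdhb13, Pcdhb19 and Pcdhb21. The other 8 genes had one in some tables only: 2 alpha, 4 beta and 2 gamma.

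The libraries labelled saline blood stood apart. Over the 8 of 10 leukocyte marker genes that were measured, genes that blood cells keep active, mean methylation per library was 51.5 to 56.6% in saline blood, 34.4 to 38.3% in the LPS blood libraries and 49.5 to 59.3% in the brain libraries. Spi1, a leukocyte transcription factor gene, was at 62.8% in saline blood, 3.69%, 3.43% and 1.85% in LPS blood at 6, 12 and 24 h, and 67.3% and 66.9% in saline hippocampus and cortex. Ptprc, the gene of CD45, was at 25.7% in saline blood and 2.05%, 0% and 0.148% in LPS blood, and at 4.30 to 12.1% over the brain groups, so saline blood lay above both. Spi1 and Ptprc rest on 5 cytosines each. Vav1, Itgal and Lat were also lower in LPS than in saline blood. Coro1a (12.75% in saline blood, 12.3 to 12.6% in LPS blood) and Arhgap45 (79.5%, 79.1 to 79.6%) hardly differed. Lcp1 was at 35.1% in saline blood, 37.0 to 37.8% in LPS blood and 37.9 to 39.7% in brain. Aqp4, an astrocyte gene, was at 30.2% in saline blood, 65.8 to 71.4% in LPS blood and 20.6 to 31.0% over the brain groups. Aldh1l1, also an astrocyte gene, went the other way, at 14.1% in saline blood, 6.84 to 7.48% in LPS blood and 34.2 to 41.0% in brain. Neuron markers (6 of 7 measured) were at 25.5 to 26.5% in saline blood, 31.0 to 34.3% in LPS blood and 16.9 to 21.6% in brain. The 4 astrocyte markers were at 37.5 to 40.3%, 43.0 to 49.8% and 37.1 to 47.5%, and the oligodendrocyte markers (4 of 5 measured) at 52.9 to 54.5%, 51.9 to 54.2% and 40.7 to 51.8%. By the mean over the leukocyte markers saline blood was thus close to brain. By their median it lay between, at 53.7%, against 28.96 to 30.55% in the LPS blood groups and 57.7 to 67.9% in the brain groups. Single markers differed, and every comparison with saline blood rests on these 4 libraries. The part that this plays in the results was not tested. Comparisons of LPS libraries with each other are given beside the tissue differences and the blood time course. In the time course the saline libraries were still part of the fit and of its estimate of spread. The blood differences between LPS and saline have no version without these 4 libraries.

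In saline tissue the alternate alpha, beta and gamma windows were mostly intermediate to high, and the windows of the C-type genes other than Pcdhgc5 were low. In hippocampus the alternate alpha windows ran from 24.7% (Pcdha12) to 72.1% (Pcdha2), the beta windows from 62.5% (Pcdhb18) to 87.5% (Pcdhb15) and the alternate gamma windows from 33.8% (Pcdhga2) to 93.1% (Pcdhga7), each in the 6 h table. Cortex ran from 24.1% (Pcdha12) to 65.3% (Pcdha2), from 58.1% (Pcdhb5) to 86.3% (Pcdhb15) and from 28.5% (Pcdhgb4) to 91.3% (Pcdhga7). Blood ran from 29.0% (Pcdha5) to 71.9% (Pcdha2), from 61.3% (Pcdhb18) to 84.3% (Pcdhb15) and from 22.1% (Pcdhga2) to 90.9% (Pcdhga7). Pcdha2, Pcdhb15 and Pcdhga7 were the highest of their kind in each of the 3 tissues. Levels depend on the cytosines a table holds. In the hippocampus 12 h table the same saline libraries were at 34.4 to 39.3% for Pcdha12, over 5 cytosines against 3 at 6 h. Pcdhga2 was at 42.5 to 47.9% there, over 20 cytosines against 16. Among C-type genes, Pcdhgc4 was lowest, at 0.639% in blood, 0.326% in hippocampus and 0.453% in cortex, and Pcdhgc5 was highest.

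**Figure D1:**
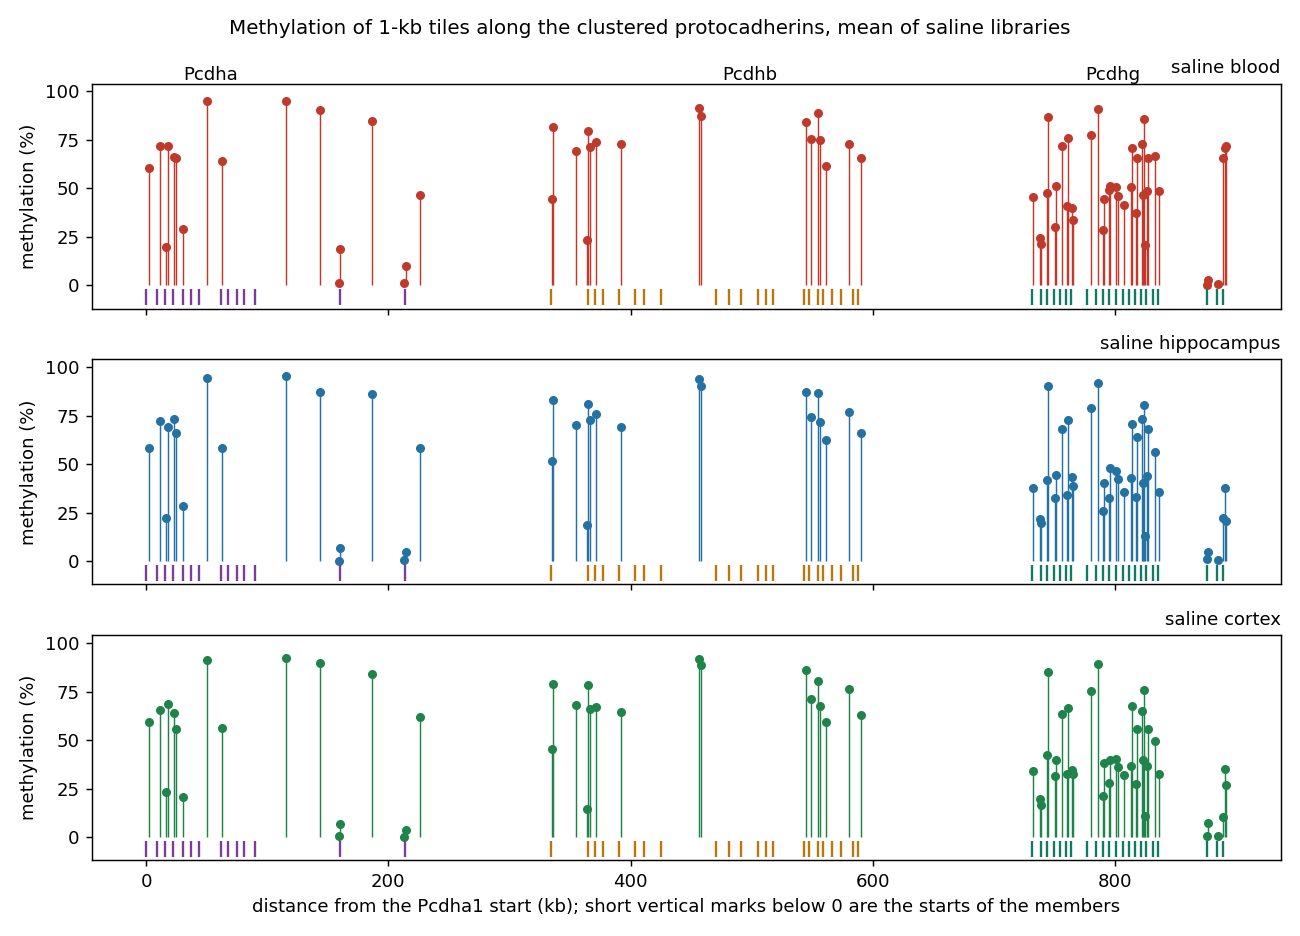
Mean methylation (%) of each 1-kb tile in the saline libraries of blood, hippocampus and cortex, against the distance in kb from the start of Pcdha1, with the starts of the 58 genes as short marks. The tiles that hold the starts of Pcdhac1, Pcdhac2, Pcdhgc3 and Pcdhgc4 lie below 19% in each tissue. The tiles at Pcdhgc5 lie far higher in blood than in brain.

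Among gamma A, gamma B and beta genes the level was lower in the first 500 bp after the start than further on. Over the cytosines measured in the 6 h tables of all tissues, the first 500 bp of 11 gamma A and gamma B genes (110 cytosines) averaged 33.9% ± 1.29 (SD, n = 4) in saline blood, 27.2% ± 2.31 (n = 3) in hippocampus and 23.4% ± 3.16 (n = 4) in cortex. From 1000 to 1499 bp the level was 69.9% ± 0.858, 66.1% ± 1.61 and 61.05% ± 2.86 over 87 cytosines of 14 genes. The 4 beta genes measured in their first 500 bp averaged 39.2%, 42.7% and 37.7%, and the 5 measured from 500 to 999 bp averaged 83.6%, 83.6% and 77.6%. The 5 C-type genes averaged 9.15%, 3.63% and 2.92% in their first 500 bp. The bins rest on different genes, so these are levels and not a test.

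**Figure D2:**
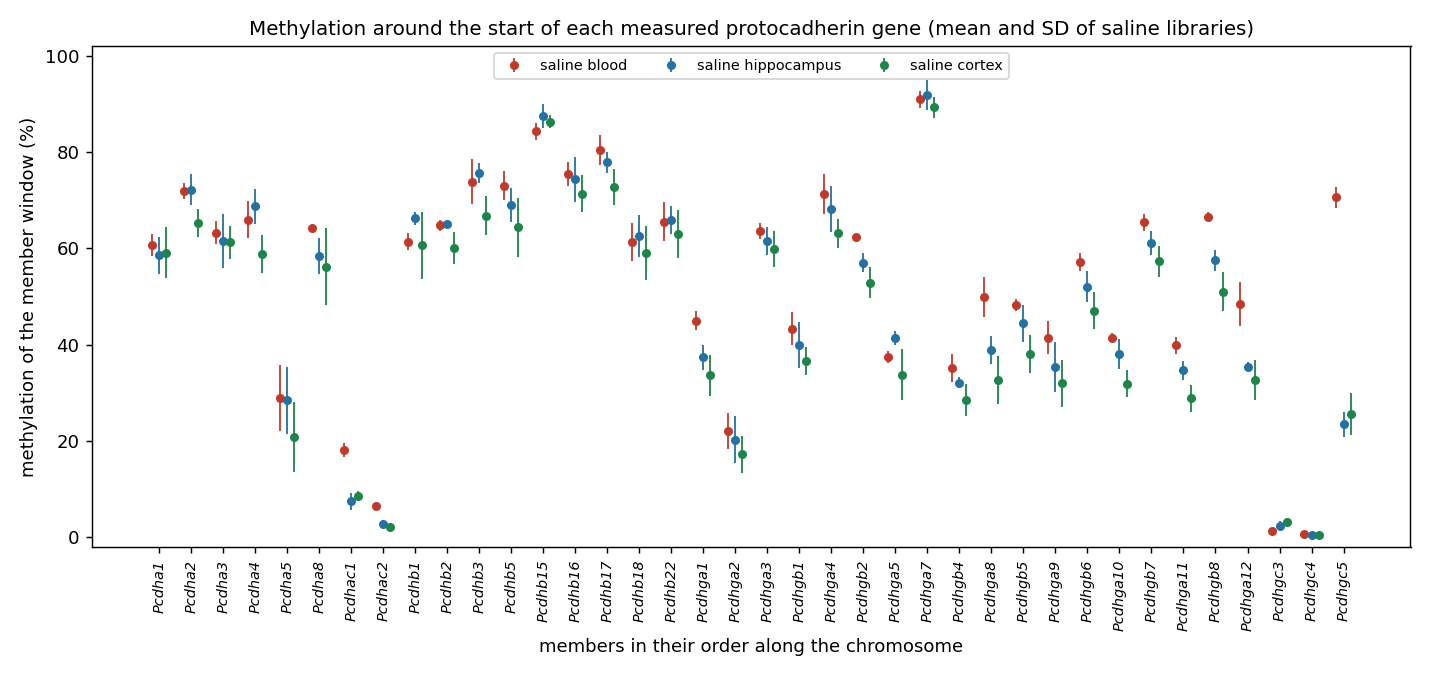
Mean methylation (%) of each member window measured in the 6 h tables of all tissues, over the cytosines they share, with the SD over 4 saline blood, 3 saline hippocampus and 4 saline cortex libraries; members stand in chromosomal order. Most gamma windows are highest in blood and lowest in cortex, and Pcdhgc5 is at 70.6% in blood, 23.5% in hippocampus and 25.6% in cortex.

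Blood was more methylated than brain over the alpha and gamma genes, and most of all at Pcdhgc5. Over the 664 common cytosines, the 14 blood libraries had gamma means of 39.3 to 44.9%, above each of the 14 hippocampus libraries (30.6 to 37.1%) and the 16 cortex libraries (28.3 to 37.4%). The alpha means were 43.4 to 45.8% in blood, 38.5 to 42.6% in hippocampus and 36.6 to 41.2% in cortex, again without overlap of blood and brain. The 6 alternate alpha windows alone did overlap, at 60.2 to 63.7% in saline blood and 57.6 to 63.1% in saline hippocampus, whereas the 5 C-type windows were at 13.0 to 13.8% and 5.35 to 5.81%. The beta means overlapped, at 64.1 to 71.6%, 66.0 to 71.4% and 61.8 to 69.9%. Over all cytosines of the 9 tables the blood libraries were at 24.6 to 27.8%, hippocampus at 22.2 to 24.7% and cortex at 22.8 to 25.4%.

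Between saline libraries, a tile was called different at an adjusted p under 0.05 (limma, Benjamini-Hochberg over all tiles) and a difference of at least 5 points. Against hippocampus, blood was higher at 11 of 67 cluster tiles, where 25% of all tiles were called higher, and lower at 1, where 23.4% were. Against cortex, blood was higher at 30 of 68 cluster tiles (23.7% of all tiles) and lower at 1 (24.8%), and 23 of those 30 lay among the 36 gamma tiles. The lone lower tile was the same in both: chr18:37156000-37156999 between the start of Pcdhac2 and the end of the alpha span, at 46.7% in blood, 58.5% in hippocampus and 62.0% in cortex. The median difference of the cluster tiles was 6.85 points between blood and cortex, against -0.50 over all tiles.

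Member windows were called at an adjusted p under 0.05 with no minimum difference. Saline blood was higher than hippocampus at 8 of 35 windows (31.9% of all genes and windows) and lower at 0 (20.1%). It was higher than cortex at 22 of 35 (29.9%) and lower at 0 (23.6%). Pcdhgc5 led both, at 70.6% ± 2.17 (n = 4) in blood, 23.5% ± 2.60 (n = 3) in hippocampus and 25.6% ± 4.35 (n = 4) in cortex, a difference of 47.1 points (SE 2.22, adjusted p 8.763e-08) and of 45.05 points (SE 2.05, adjusted p 6.546e-08, limma). Its 3 tiles showed the same gap, for example 71.8% in blood against 20.5% and 26.8% in hippocampus and cortex at chr18:37822000-37822999. Pcdhac1 was at 18.1% in blood, 7.46% in hippocampus and 8.56% in cortex (limma adjusted p 5.11e-06 and 6.197e-06). Pcdhac2, Pcdhgc3 and Pcdhgc4 lay outside the 5 to 95% mean level required for a test. The next largest differences between blood and cortex were at the alternate genes Pcdhga8 (49.98% against 32.7%), Pcdhga12 (48.4% against 32.6%) and Pcdhgb8 (66.6% against 51.0%).

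The same comparisons among LPS 6 h libraries, which leave out the saline blood libraries, gave more calls against hippocampus, fewer against cortex and the same leading gene. Blood was higher than hippocampus at 26 of 69 tiles (40.3% of all tiles) and lower at 2 (15.4%), and higher than cortex at 24 of 69 (32.8%) and lower at 3 (18.3%). With each library centred on its own mean over all cytosines, the first of these became 19 higher and 14 lower. By window, blood was higher at 17 of 35 (58.5%) and lower at 2 (9.25%) against hippocampus, or 14 and 8 after centring, and higher at 18 (48%) and lower at 2 (13.4%) against cortex. Pcdhgc5 was at 88.2% ± 2.45 in blood, 19.3% ± 1.53 in hippocampus and 26.2% ± 0.714 in cortex (n = 4 each). The windows lower in blood were Pcdhb1 and Pcdhb15 in both comparisons. Pcdhb15 was at 79.8% against 85.3% and 86.1%. The Pcdhb1 call was lost in 4 of the refits that left out a library against hippocampus, and in 5 against cortex.

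Hippocampus and cortex differed at few members. In saline libraries hippocampus was higher at 1 of 68 tiles (4.89% of all tiles) and lower at 0 (10.4%); the tile lies in Pcdhga11 (68.1% against 55.8%). Its windows were higher at 4 of 35 (3.09%) and lower at 0 (9.16%), namely Pcdha2, Pcdha4, Pcdhga10 and Pcdhga11, 5.89 to 9.86 points above cortex. Leaving out single libraries gave 0 to 6 of these window calls, so the count rests on individual libraries. In LPS 6 h libraries 0 tiles were higher (2.71%) and 1 was lower (21.2%), and by window 0 were higher (1.23%) and Pcdhgc5 alone was lower (28.4%), at 19.3% against 26.2% (difference -6.85 points, SE 1.21, limma adjusted p 0.001622).

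In blood, LPS libraries at 6 h were higher than saline libraries over parts of the gamma genes and lower over beta genes. Of 70 cluster tiles, 10 were called higher, where 29.6% of all tiles were, and 6 lower, where 11.8% were. The gamma genes held 9 higher and 1 lower of 36 tiles, the beta genes 0 higher and 4 lower of 18, and the alpha genes 1 each way of 16. The share of gamma tiles called higher was under the 29.6% of all tiles. The share of beta tiles called lower was above the 11.8%, on 4 tiles. The share of cluster tiles called in either direction was below the 41.4% of all tiles. Centring each library on its own mean, which moved the median difference of all tiles from 1.27 to -0.65 points, gave 8 higher and 14 lower cluster tiles.

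**Figure D3:**
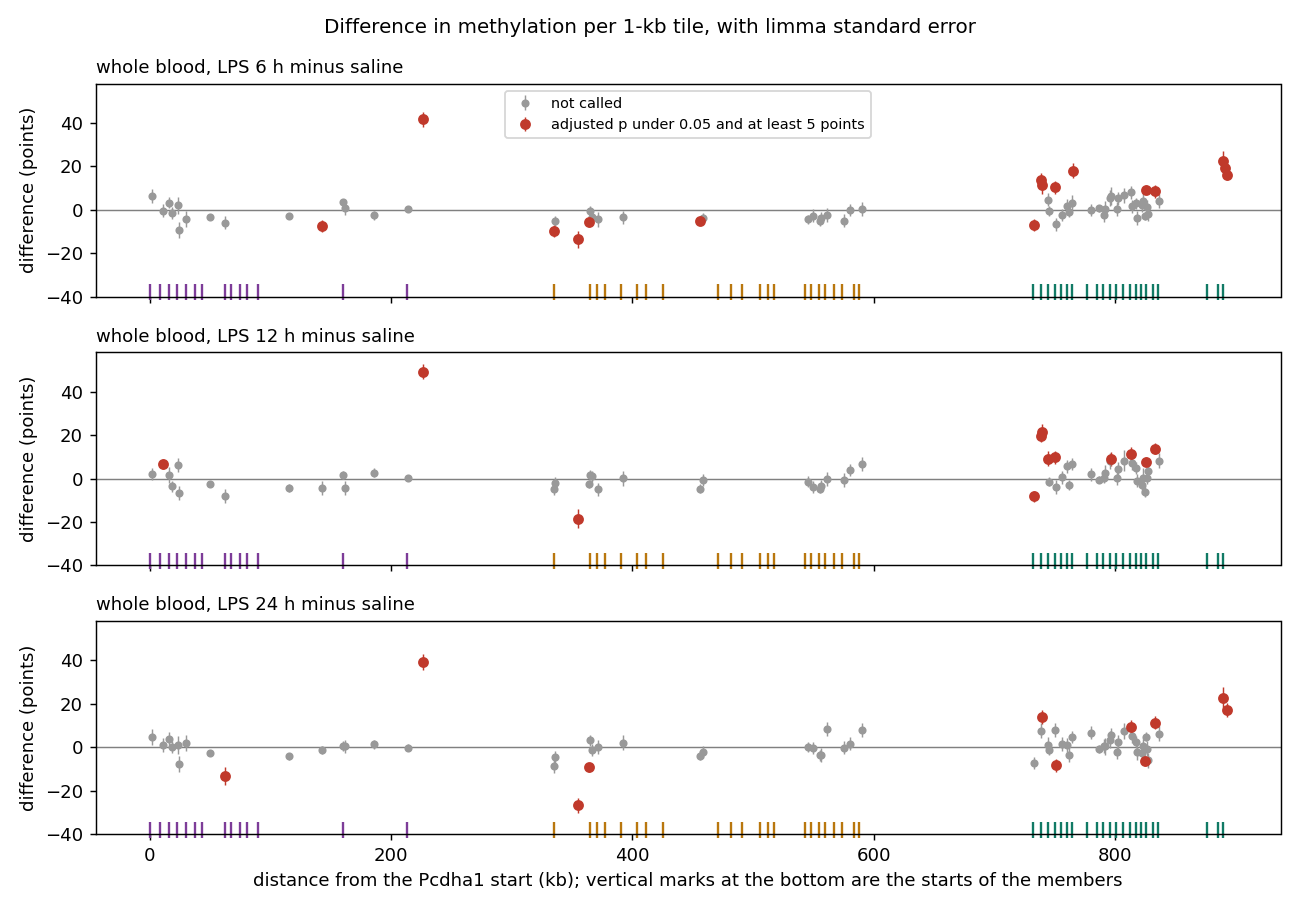
Difference in methylation (points, LPS minus saline) of each tested 1-kb tile in blood at 6, 12 and 24 h, with the limma standard error, against the distance in kb from the start of Pcdha1; red marks tiles called at an adjusted p under 0.05 and at least 5 points. One alpha tile stands at 41.7, 49.1 and 39.3 points, and the called gamma tiles are mostly above 0.

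The largest difference in the cluster was at the alpha tile chr18:37156000-37156999, whose middle lies 12822 bp after the start of Pcdhac2 and outside any member window. Over its 6 cytosines the saline blood libraries were at 40.5%, 47.5%, 50.3% and 48.4%, and the LPS 6 h libraries at 92.2%, 80.9%, 90.2% and 90.2%. The groups did not overlap, and every LPS library was more than 30 points above every saline library. The difference was 41.7 points (SE 3.44, limma adjusted p 2.961e-07). At 24 h the LPS libraries were at 87.1%, 89.6% and 81.3% (difference 39.3 points, SE 3.58, adjusted p 1.936e-06, limma). At 12 h only 3 of its cytosines were in the table, at 91.8%, 92.2% and 88.7% in LPS libraries against a saline mean of 41.8%. Both saline brain regions, at 58.5% and 62.0%, lay between the 2 kinds of blood library.

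Pcdhgc5, the last C-type gene of the cluster, held the next 2 tiles. Its window (19 cytosines) was at 71.8%, 73.0%, 68.3% and 69.4% in the saline blood libraries and at 91.5%, 88.4%, 86.1% and 86.7% in the LPS 6 h libraries. The groups did not overlap and differed by 17.5 points (SE 1.54, limma adjusted p 2.94e-05). At 24 h, over 11 cytosines, saline libraries were at 78.8%, 76.5%, 68.8% and 69.3% and LPS libraries at 91.4%, 90.9% and 90.4%, a difference of 17.6 points (SE 2.59, adjusted p 0.0008577, limma). The window had too few cytosines in the blood 12 h table. Tile by tile at 6 h, the one at the start (chr18:37819000-37819999, 3 cytosines) differed by 22.3 points, and those at chr18:37821000-37821999 and chr18:37822000-37822999 by 19.4 and 16.0 points. At the first of these, saline replicate 1 was at 82.05% and the other three at 59.0 to 62.0%, below all LPS libraries (85.5 to 93.8%).

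The other C-type genes showed small differences in blood at 6 h. Pcdhac1 was at 21.8% in saline and 24.5% in LPS libraries (limma adjusted p 0.06923), and Pcdhac2 at 10.7% and 10.5%. Pcdhgc3 was at 1.31% and 2.96% with no overlap between groups, and Pcdhgc4 at 0.639% and 0.854% with overlap; both lay under the 5% level required for a test.

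**Figure D4:**
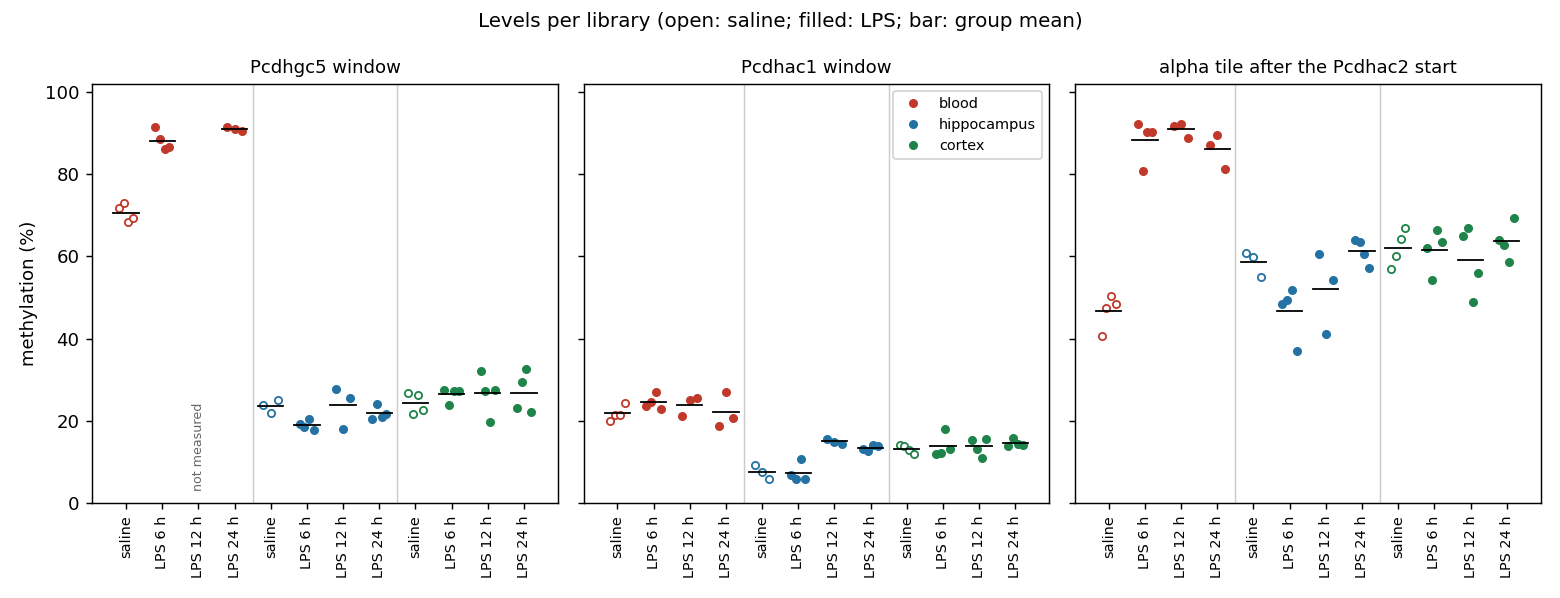
Methylation (%) per library of the Pcdhgc5 window, the Pcdhac1 window and the alpha tile after the Pcdhac2 start in all 12 groups (open: saline; filled: LPS; bar: group mean), each over the cytosines of its own table, which differ between times. In the Pcdhgc5 window the blood libraries lie above 68% and the brain libraries below 33%. In the alpha tile LPS blood is highest. Saline blood overlaps hippocampus there, where LPS 12 h replicate 2 is at 41.0%.

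Most of the other windows higher in LPS blood were alternate gamma genes. By window, LPS 6 h blood was higher at 7 of 37 (42.2% of all genes and windows) and lower at 5 (9.82%), with 52.1% of all called either way; centring gave 5 and 10. Besides Pcdhgc5, the higher windows were Pcdhga2, Pcdhga5, Pcdhga11, Pcdhgb6, Pcdhgb8 and Pcdha1. Pcdhga2 went from 22.1% ± 3.69 to 34.0% ± 6.57 (n = 4 each; 11.9 points, SE 3.18, limma adjusted p 0.01256), and Pcdhgb8 from 66.6% ± 0.910 to 75.8% ± 4.01 (9.19 points, SE 1.85, limma adjusted p 0.002918). At the Pcdhga5 tile chr18:37695000-37695999 the saline libraries were at 34.2%, 37.2%, 31.7% and 32.4% and the LPS 6 h libraries at 53.1%, 45.2%, 60.8% and 47.9%. The lower of the groups ended at 37.2% and the higher began at 45.2%. The Pcdha1 window (60.7% to 67.2%) overlapped between groups and lost its call without saline replicate 1, 3 or 4, without LPS replicate 1 and after centring. Pcdhga5 lost its call without saline replicate 3 or 4 or LPS replicate 1, and Pcdhga11 lost it after centring.

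Lower in LPS 6 h blood were the windows of Pcdha8, Pcdhb1, Pcdhb2, Pcdhb15 and Pcdhga1. Pcdhb1, the first beta gene, fell from 61.4% ± 1.83 to 53.7% ± 2.28 (-7.67 points, SE 1.34, limma adjusted p 0.001338), and Pcdhga1, the first gamma gene, from 45.0% ± 1.997 to 38.3% ± 2.38 (-6.70 points, SE 1.37, limma adjusted p 0.003174). Of the 10 beta windows tested, 9 had a difference below 0 and 3 were called. The call of Pcdhb2 (66.2% to 63.4%) was lost on leaving out any library but saline replicate 3. Among tiles, the largest was chr18:37285000-37285999, 20502 bp after the start of Pcdhb1 and outside any window. Its saline libraries were at 72.4%, 65.02%, 73.7% and 66.5% and its LPS 6 h libraries at 50.8%, 60.8%, 62.9% and 48.9% (-13.6 points, SE 3.87, limma adjusted p 0.01096). Every LPS library lay below every saline library.

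At 12 h and 24 h most cluster tiles called in blood kept their direction. At 12 h, 10 of 65 tiles were higher (34.6% of all tiles) and 2 lower (9.95%), with 44.5% called either way, and centring gave 6 and 8. At 24 h, 6 of 68 were higher (31.1%) and 5 lower (11.3%), with 42.5% called either way, and centring gave 5 and 12. Windows were higher at 8 of 35 (47.9%) and lower at 2 (7.97%) at 12 h, with 55.9% called either way, and higher at 7 of 37 (40.8%) and lower at 3 (8.86%) at 24 h, with 49.6% either way. Centring gave 4 and 8 at 12 h and 7 and 8 at 24 h. Of 65 tiles tested at all 3 times, 4 were called at each time, 6 at 2 times, 9 at 1 and 46 at none, and 18 of the 19 called at least once had the same sign at all times. These comparisons share the saline libraries, so they are no independent repeats. The matching counts over all tiles were not taken, so whether the cluster differs from the genome in this is not known.

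Pcdhga2, Pcdhga5, Pcdhgb6 and Pcdhgb8 were called higher, and Pcdha8 and Pcdhga1 lower, at every time in blood. Pcdhga2 was at 24.6% in saline and 44.9% in LPS libraries over the 7 cytosines of the 12 h table (20.4 points, SE 2.34, limma adjusted p 0.0002362), and at 22.1% and 34.0% at 24 h. Pcdhgb8 was at 64.6% and 77.8% at 12 h and at 66.6% and 78.2% at 24 h. Pcdha8 was at 64.2% in saline libraries and at 58.3%, 56.0% and 51.2% at 6, 12 and 24 h; at 24 h its LPS libraries were at 47.2%, 61.7% and 44.8%, so replicate 2 lay apart, near the saline range of 63.2 to 64.7%. The tile after Pcdhb1 was at 54.7%, 57.5% and 40.4% at 12 h and at 40.4%, 45.3% and 42.8% at 24 h (-26.6 points, SE 3.45, limma adjusted p 3.987e-05). At 12 h Pcdha2, Pcdhga8, Pcdhga11 and Pcdhga12 were also called higher. At 24 h Pcdhb18 and Pcdhb22 were also called higher, and Pcdhb1 lower. Pcdhga5 and Pcdhga11 lost their 12 h calls after centring. At 24 h Pcdhga5 lost its call with the replicate number in the fit, and Pcdhb1 lost its call in 9 settings. Pcdhga8 and Pcdhga12 lost their calls after centring and without LPS replicate 2 or 3, and also without saline replicate 1 or 4 (Pcdhga8) or 3 (Pcdhga12). Pcdhb18 and Pcdhb22 lost theirs without LPS replicate 2. Pcdha8 lost its call at 12 h without saline replicate 1 or LPS replicate 3, and at 24 h without LPS replicate 1 or 3.

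In contrasts between LPS times, which take no saline level, no cluster tile was called. The saline libraries of each tissue were in the same fit, so the p-values also depend on their spread. Between LPS 24 h and 6 h in blood, 0 of 66 tiles were called by limma and 5 had an unadjusted p under 0.05; 0% of all tiles were called. In hippocampus and cortex, 0 of 70 and 0 of 74 were called (0% of all tiles in both), with 4 and 2 at an unadjusted p under 0.05. Of the 10 tiles higher in LPS 6 h blood, saline blood lay between LPS blood and both brain regions at 7, below them all at 2 and otherwise at 1. Of the 6 lower tiles, saline blood lay between at 2, above them all at 3 and otherwise at 1. These tiles were chosen by their difference between saline and LPS blood, so the side of LPS blood was set by that choice. The same positions over all called tiles were not counted, and what lies behind them was not tested.

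In blood at 6 h, the subcluster means of each LPS library lay below saline for beta genes and above saline for gamma genes. At 6 h the beta mean was 71.9%, 71.3%, 70.1% and 73.2% in saline and 67.7%, 66.0%, 68.2% and 66.2% in LPS libraries. The gamma mean was 43.2%, 43.5%, 43.1% and 42.8% in saline and 48.0%, 44.4%, 47.2% and 45.6% in LPS libraries. Neither pair of groups overlapped. The differences were -4.60 and 3.17 points, each with an exact two-sided permutation p of 0.02857, the smallest that 4 against 4 allow, and 0.2571 after adjustment over 27 tests. The alpha mean overlapped (45.1% against 46.3%), and after centring its difference of 1.15 became -0.77 points while beta and gamma kept their signs, at -6.52 and 1.25. At 12 h the beta and gamma differences were -2.66 and 3.40 points without overlap (exact p 0.05714, the smallest possible, two-sided), and at 24 h both overlapped.

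**Figure D5:**
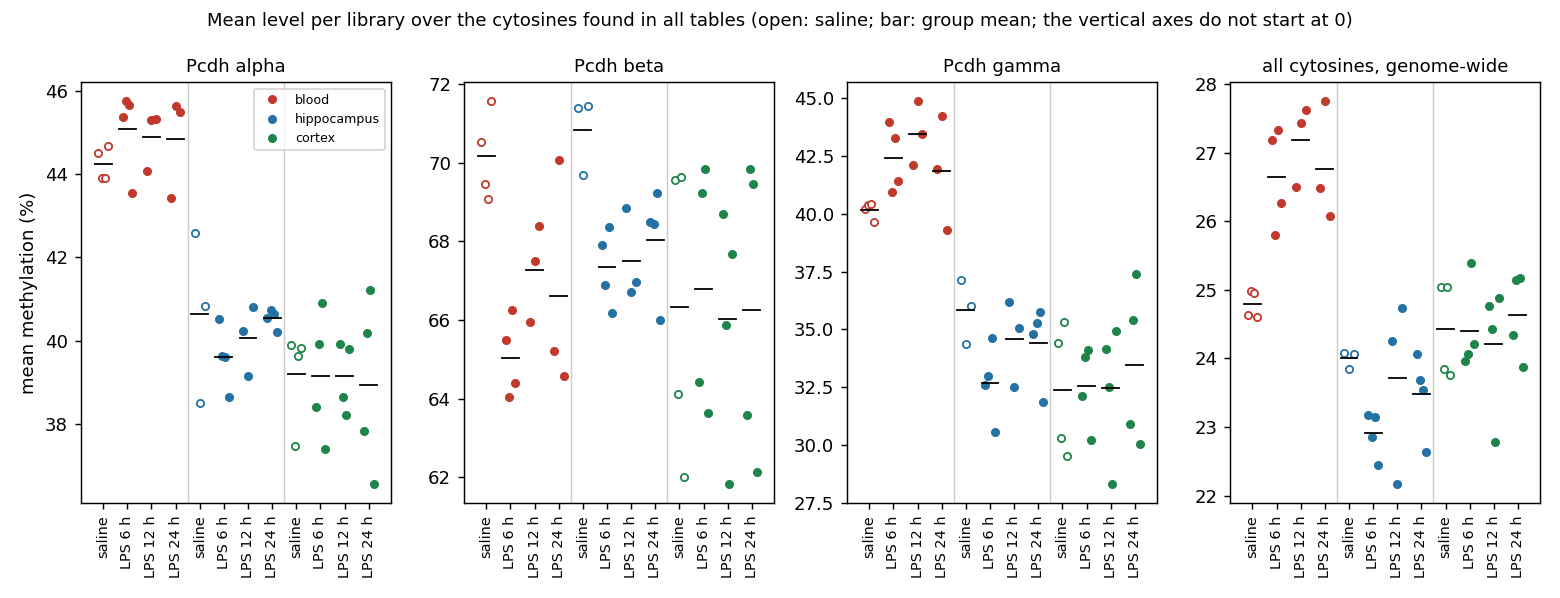
Mean methylation (%) per library over the alpha, beta and gamma cytosines common to all tables and over all common cytosines of the genome, in the 12 groups (open: saline; filled: LPS; bar: group mean); the vertical axes do not start at 0. Blood lies above brain for alpha and gamma and overlaps it for beta, and the cortex libraries spread over 61.8 to 69.9% for beta.

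In hippocampus, LPS 6 h libraries were lower at several members, a result that held in few settings. The window test called 5 of 37 lower (6.48% of all genes and windows) and 0 higher (0.0179%), 6.5% either way, and 35 of the 37 differences were below 0, with a median of -3.01 points against -0.98 over all genes. Pcdhgc5 was at 23.9%, 22.0% and 25.1% in saline and at 19.3%, 18.6%, 20.5% and 17.8% in LPS libraries (-4.62 points, limma adjusted p 0.04115). Pcdha4 was at 70.0% and 60.3% (limma adjusted p 0.03406), and Pcdhga5, Pcdhga11 and Pcdhgb8 differed by -5.96, -5.78 and -7.31 points. Leaving out any 1 of the 7 libraries left 0 or 1 of the 5 calls, and centring left 0. Of 73 tiles 0 were called (0% of all tiles), 8 had an unadjusted p under 0.05 and the smallest adjusted p was 0.08537 (limma).

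The hippocampal subcluster means at 6 h were lower for beta and gamma genes. The beta mean was 74.0%, 71.9% and 74.1% in saline and 70.8%, 69.9%, 70.8% and 69.3% in LPS libraries. The gamma mean was 37.5%, 35.2% and 37.0% in saline and 33.0%, 33.5%, 35.0% and 31.9% in LPS libraries. Neither overlapped, with differences of -3.14 and -3.23 points (exact two-sided p 0.05714, the smallest that 3 against 4 allow; adjusted 0.2571). Over all cytosines of that table LPS libraries were at 24.2 to 24.9% and saline libraries at 25.65 to 25.9%, so a lower level was found genome-wide as well. At 12 h and 24 h 0 of 75 and 0 of 74 tiles were called (0% of all tiles), with 0 and 2 at an unadjusted p under 0.05 by limma, and 0 of 39 and 0 of 37 windows (0% of all genes and windows).

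In cortex no difference between LPS and saline was detected in the cluster. Of 77, 78 and 80 tiles at 6, 12 and 24 h, 0 were called by limma (0% of all tiles), with 1, 1 and 0 at an unadjusted p under 0.05, and 0 of 38, 39 and 39 windows were called (0%). Pcdhgc5 was at 24.3% in saline libraries of the 6 h table, and the 3 subcluster means differed by -0.34 to 1.31 points over the 3 times, with overlap in each. The libraries spread within groups. Saline replicates 1 and 3 had beta means of 70.8% and 71.1% and replicates 2 and 4 of 66.7% and 65.7%, and the gamma means were 34.0%, 34.8%, 30.6% and 30.1% in the same order. Over the 16 cortex libraries, beta and gamma means moved together (Pearson r 0.933, Spearman rho 0.897), and the gamma mean also followed the mean over all common cytosines (r 0.873, rho 0.882); these measures share their libraries and any library-wide shift.

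The difference between LPS and saline libraries was itself compared between tissues with an interaction term. At 6 h, 11 of 68 cluster tiles had a larger or smaller LPS difference in blood than in hippocampus (39.4% of all tiles), and all 11 were higher in blood. Against cortex it was 8 of 71 (31.1%), of which 6 were higher and 2 lower. At 12 h the counts were 5 of 65 against hippocampus (33.4%) and 5 of 65 against cortex (33.5%), and at 24 h 6 of 68 (37%) and 7 of 69 (31.7%). The alpha tile at 37156000 had the largest difference of differences at 6 h, 53.5 points against hippocampus (SE 5.34, limma adjusted p 2.27e-07) and 42.1 against cortex, and the Pcdhgc5 tile at 37822000 had 16.8 and 16.7. Between hippocampus and cortex 0 of 73, 0 of 74 and 0 of 73 tiles were called at 6, 12 and 24 h (0%, 0% and 0.00182% of all tiles). The blood terms rest on the 4 saline blood libraries described above.

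Genes known to act on or beside the cluster were read from the same gene tables, as the mean over the gene and 1000 bp on either side. In blood at 6 h, 3 of 10 tested regulators were higher and 0 lower, as were 3 and 1 of 8 effectors, 3 and 2 of 10 non-clustered protocadherins and 11 and 0 of 17 other homophilic adhesion genes, to be read against 42.2% and 9.82% of all genes. Smchd1, which represses the cluster, was at 11.9% in saline and 13.6% in LPS libraries (limma adjusted p 0.00216). Setdb1, a histone methyltransferase, was at 17.5% and 18.4% (limma adjusted p 0.1891), and the DNA methyltransferase genes Dnmt3b (15.1% and 15.0%) and Dnmt3a (28.7% and 28.6%) had adjusted p of 0.7098 and 0.9292 (limma). Ctcf (3.13% and 4.08%) and the cohesin gene Rad21 (0.372% and 0.448%) were under the level required for a test. Among the others, Celsr1, a planar polarity cadherin, was at 39.7% and 49.8% (limma adjusted p 2.9e-05), L1cam, a neuronal adhesion gene, at 57.0% and 67.0%, Pcdh20 at 8.83% and 5.03%, and Nlgn1, a synaptic adhesion gene, at 59.9% and 56.2%. In hippocampus at 6 h, 2 of 16 other adhesion genes were lower, against 6.48% of all genes; those genome-wide calls, 722 lower, became 1 after centring. In LPS comparisons of brain, no other list had a call.

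The mean over the 36 windows measured in all tables was 53.05%, 53.5%, 54.8% and 53.9% in blood (saline, then LPS 6, 12 and 24 h), 49.9%, 46.9%, 48.0% and 48.5% in hippocampus and 46.0%, 46.3%, 46.1% and 46.7% in cortex. Blood was highest and cortex lowest in saline libraries. Among 9995 other genes, those with the most similar pattern over the 12 group means were Miga1 (Pearson r 0.994), Zfp354a (0.994), Kcnh1 (0.993), Syt1 (0.992) and Tnfrsf9 (0.991). The 12 means share libraries and saline groups, and the likeness is a description only.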

How the data were processed

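Genome-wide methylation was measured by RRBS in 44 libraries. Per the labels' protocols, 100 ng of genomic DNA went into each Ovation RRBS library. The authors deposited 9 tables of percent methylation per cytosine. Bismark, Bowtie2, methylKit, SAMtools, FastQC and Trim Galore are named, and GRCm38/mm10 as the build, per the submitters' processing notes. Their versions, settings and coverage minimum were not given in the sources used here. Without read counts the coverage minimum could not be varied and no counting interval can be given. A saline library had equal values in each table of its tissue at shared cytosines.

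Each cytosine was counted once. Tile and window means with a mean level of 5 to 95% were tested by a two-sided moderated test in limma 3.58.1 under R 4.3.3 (eBayes with a trend, Benjamini-Hochberg over the whole table), after a check on simulated data. Comparisons between tissues used cytosines found in the 6 h tables of all 3 tissues, those between LPS times cytosines of all 3 tables of the tissue, and the interaction cytosines of both tables. The fits between LPS times held all groups of the tissue, saline included. Subcluster means were tested by exact permutation. Gene spans are those of RefSeq GRCm38.p6, which gives no strand or exons here. 3 alpha-gamma fusion gene models were left out.

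The members, gene lists and tests were chosen with earlier results of these data known. Items to name were, per comparison, the 5 called tiles with the largest LPS difference and the 3 with the largest tissue difference each way. The C-type genes and the highest and lowest saline window of each kind were added. Of the related genes, 6 fixed regulators and the 2 largest calls each way in blood were taken, and the 5 most similar genes. Some of these tiles are left out of the text. Other genes are named to complete a short list of calls, after their values were seen.

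Same-numbered libraries were not taken as pairs: the labels do not link them, and in no comparison did every pair's deviations correlate above 0.1.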

Additional observations from a re-analysis of the deposited data

Results flagged for a closer look

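Of 64 groups of 4 libraries checked for 1 library apart from the others, 3 stood out, and chance alone gives about 1 in 20. Saline cortex replicate 2 had an alpha mean over the common cytosines of 37.47%, against 39.6 to 39.9% in the other 3. In the LPS 6 h cortex group, replicate 3 had a Pcdhgc3 window of 5.242%, against 3.23 to 3.34% in the others, and replicate 2 had a Pcdhgc5 window of 23.78%, against 27.3 to 27.5%.

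The LPS difference passed the interaction test between blood and hippocampus at 11, 5 and 6 cluster tiles at 6, 12 and 24 h, and between blood and cortex at 8, 5 and 7. The saline blood libraries enter each of these, and their part was not tested. Their leukocyte markers had a mean near the brain level and a median between LPS blood and brain.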

How the results depend on the processing

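No called tile or window changed direction in the settings tried, and the alpha mean differences in blood, none of them called, did after centring. The small alpha mean differences in hippocampus at 24 h (0.109 points) and in cortex at each time (0.025 to 0.040) also changed sign in some settings. On leaving out single libraries, so did hippocampal alpha at 12 h, cortex beta at each time and cortex gamma at 6 and 12 h. Named tiles kept their call in 599 of 626 refits and member windows in 1507 of 1680. A minimum difference of 10 points left 9, 6 and 7 blood tiles at 6, 12 and 24 h and 15 for saline blood against cortex. Centring gave 17 blood tiles at 24 h, and between hippocampus and cortex 2 tiles in LPS 6 h libraries, 10 windows in saline and 2 in LPS 6 h libraries. Between saline hippocampus and cortex, tiles of at least 5 cytosines gave 2 calls, no limit on the level 0 (2 windows) and no trend 5; in LPS 6 h libraries the logit scale gave 0 and no trend 2. The 5 hippocampal windows at 6 h became 0 with no limit, 0 with centring, 3 on the logit scale and 2 without trend. Centred differences of the subcluster means in blood (LPS minus saline at 6, 12 and 24 h) were -0.766, -1.691 and -1.068 points for alpha, -6.516, -5.108 and -5.044 for beta, and 1.25, 0.948 and 0.33 for gamma. Weighing tiles equally gave differences of 2.873 (alpha, blood, 12 h) and -4.568 (gamma, hippocampus, 6 h). The cause of these changes was not tested.

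Leaving out each library in turn gave 11 to 15, 9 to 12 and 8 to 12 blood tiles, 9 to 14, 8 to 12 and 8 to 11 blood windows, and 0 to 1 hippocampal windows at 6 h. Saline blood had 9 to 12 tiles against hippocampus and 24 to 36 against cortex, and LPS 6 h blood 23 to 30 and 24 to 29. Hippocampus against cortex had 0 to 3 saline tiles, 0 to 6 saline windows and 1 to 2 LPS 6 h tiles. The replicate block, fitted although the numbers do not pair the libraries, gave 14, 9 and 9 blood tiles, 0 hippocampal windows at 6 h and 13 windows for saline blood against hippocampus (8 without it). Correlations of same-numbered libraries ran from -0.171 to 0.201.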
